A study of Homo sapiens with 8 samples.

Results

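RAB proteins are small GTPases that mark membranes along the routes by which vesicles travel in a cell. Their genes were taken here as the protein-coding Ensembl entries whose GENCODE symbol is RAB, a number and at most 1 letter. The rule found 63 genes among the 58735 listed in the count files, and 55 of them had enough counts to be tested. RNA was sequenced from 22Rv1, an established human line of castration-resistant prostate cancer, in 2 groups of 4 libraries. MARK3i cells received PCC0208017, which the submitters describe as an inhibitor of the kinase MARK3, and control cells received DMSO, the vehicle. Neither dose nor duration is given in the sources used here, no other perturbation of MARK3 is among these samples, and all libraries come from 1 line.

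A RAB protein is switched on when a guanine nucleotide exchange factor (GEF) loads it with GTP, and off when a GTPase-activating protein (GAP) makes it hydrolyse the GTP. In the GTP form it sits on its membrane through a prenyl anchor and recruits effectors such as motors and tethers, after which SNARE proteins fuse the vesicle with its target. GDP dissociation inhibitors carry the inactive protein back through the cytosol. In prostate epithelium these routes carry, among other cargo, the secreted kallikreins.

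The genes were sorted by the route each protein is best known for. The secretory route was read in 2 stretches, with 15 genes of the endoplasmic reticulum (ER) and Golgi and 12 of the way from the Golgi to the cell surface. The endosomal list held 16 genes, the lysosomal list, which includes late endosomes and autophagy, held 10, and 10 fell outside these routes. Many RAB proteins act on more than 1 route, so the sorting is a simplification. RAB6D, a near copy of the RAB6 genes, was missed when the lists were written and stands among the 10 others.

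Total counts ranged from 13517289 to 21271127 in MARK3i libraries and from 12672817 to 13386143 in control libraries. MARK3 itself averaged 90.4 ± 2.28 CPM in MARK3i cells and 77.8 ± 2.30 CPM in control cells (SD, n = 4 each; 0.22 ± 0.06, adjusted p = 0.00287, a call that ended with GC offsets at 0.11), which checks neither the label nor the inhibition, since the compound is described as acting on the protein. CPM (the count divided by the library's total in units of 1e+06 counts) is on a scale adjusted for composition, TMM. All 9 markers of prostate luminal cells were detected, and their summed level was 1825 to 1918 CPM in MARK3i libraries and 2785 to 2875 CPM in control libraries, with 7 of the 9 called lower. Summed fibroblast markers, mostly from COL1A1, were at 15 to 21.9 CPM in MARK3i libraries and 12.6 to 18.1 CPM in control libraries. Only 2 of these 6 genes were tested, with 1 called higher and 1 lower. COL1A1 averaged 18 CPM in MARK3i cells and 11.3 CPM in control cells, whereas LUM averaged 0.508 and 3 CPM. Endothelial markers summed to at most 0.135 CPM in MARK3i libraries and 0.079 CPM in control libraries, with PECAM1 and CDH5 at 0. Immune markers summed to 1.39 to 2.60 CPM in MARK3i libraries and 1.48 to 2.05 CPM in control libraries, with CD3E at 0. The part of these levels in the RAB results was not tested. The labels do not say whether replicates were separate cultures, so p-values measure only the spread between these libraries, which may be technical.

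More RAB genes were higher than lower in MARK3i cells, mostly by small amounts. Of the 55 tested, 25 were called higher and 5 lower, and 25 were not called. Across all 16452 tested genes, 58.1% were called, 29.8% higher and 28.3% lower, so higher calls were more frequent among RAB genes (45.5%) and lower calls less frequent (9.09%) than in the background. With total-count scaling 38.1% of all tested genes were higher and 21.9% lower, and 30 and 2 RAB genes were. With offsets for the GC trend of each library, described below, 32.7% of RAB genes were higher and 9.09% lower, against 30.0% and 29.6% of all tested genes, so the share of higher calls was then close to the background. No test was made of that difference, because the genes are not independent of each other. The median log2 fold change was 0.18 for RAB genes and 0.02 for all tested genes. A call is an adjusted p under 0.05 by the quasi-likelihood test of edgeR, adjusted over all tested genes (Benjamini-Hochberg), and fold changes are MARK3i minus control on the log2 scale, ± SE, with n = 4 libraries per group.

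The libraries of the 2 groups did not overlap for 19 RAB genes on the higher side and 4 on the lower side, which is 34.5% and 7.27% of those tested, against 25.8% and 25.1% of all tested genes. Of the 55 tested RAB genes, 3 (RAB30, RAB31 and RAB3C) were called higher by at least 1 on the log2 scale. Only 1 (RAB3B) was called lower by that much. Across all tested genes 4.24% and 6.09% were, so large rises were about as frequent among RAB genes as in the background. Summed over all 63 genes, RAB transcripts were at 3350 ± 66.3 CPM in MARK3i cells and 3087 ± 53.6 CPM in control cells (SD, n = 4 each), a ratio of 1.09. In bulk RNA such a sum cannot tell a change in each cell from a change in the mix of cells.

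**Figure D1:**
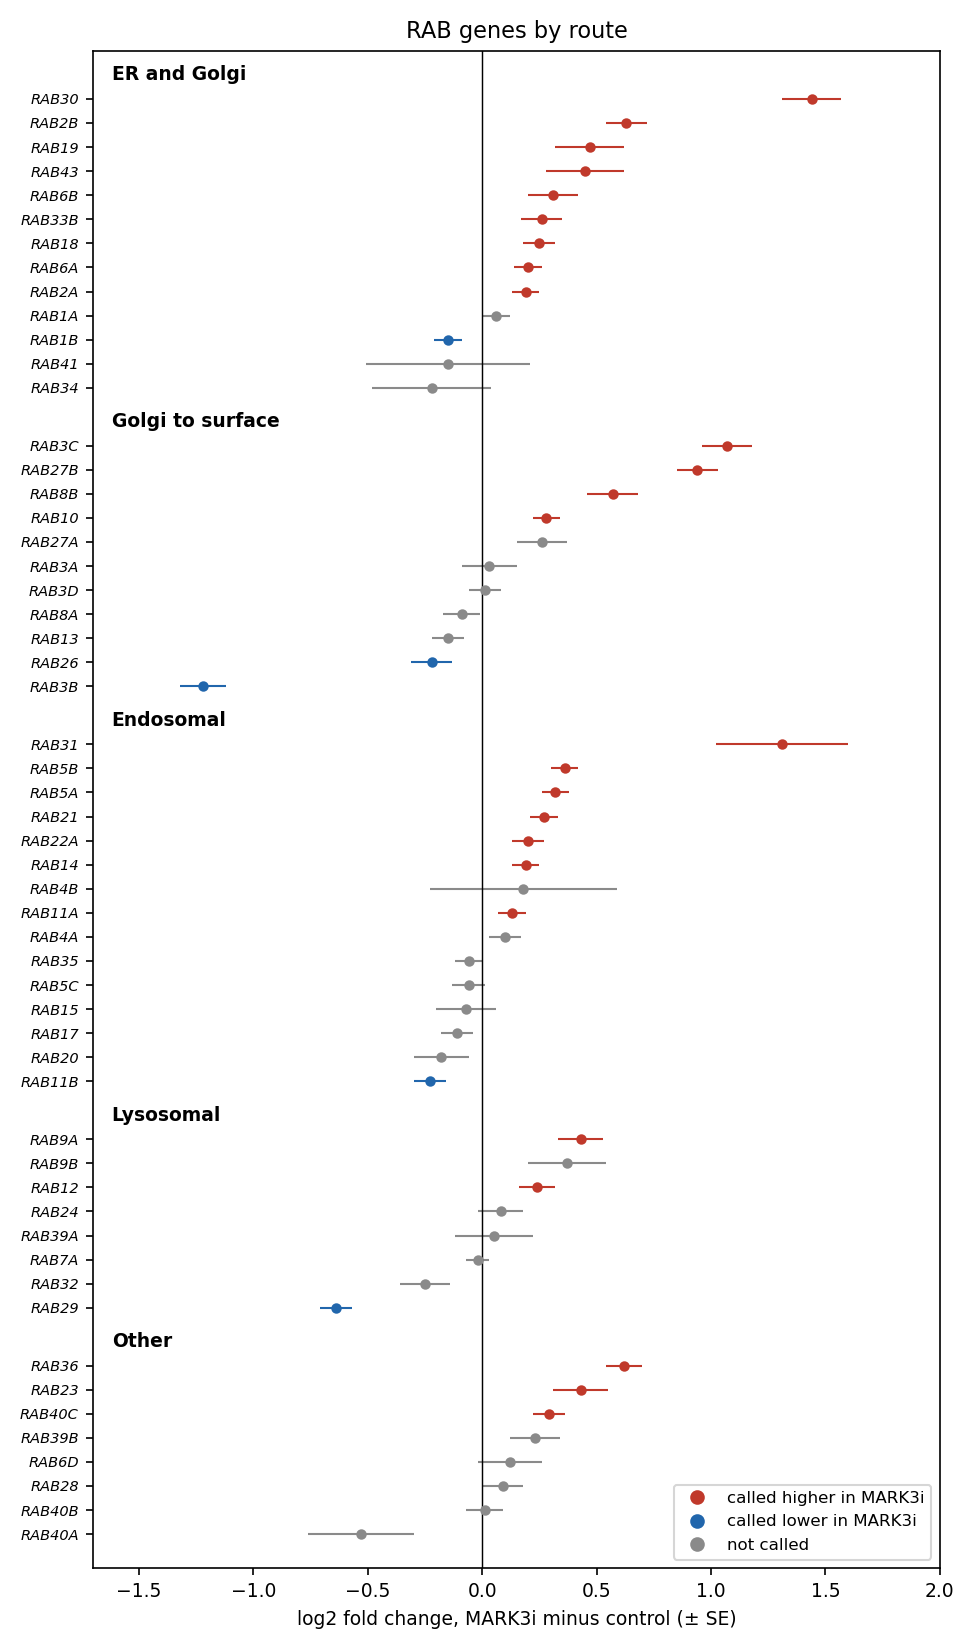
Log2 fold change (MARK3i minus control, horizontal axis) with its standard error for the 55 tested RAB genes, grouped by route and ordered by size. Red points were called higher in MARK3i cells, blue points lower and grey points not called. Most red points lie under 0.5, RAB30 at 1.44 is the highest, and RAB3B at −1.22 is the lowest.

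The calls differed with the base composition of the transcripts. Of the 26 tested RAB genes with a longest transcript under 44.7% GC, the median, 18 were called higher and 0 lower, with a median log2 change of 0.26. Of the 29 at or above it, 7 were called higher and 5 lower, with a median of −0.06. Over all tested genes 29.8% were called higher and 28.3% lower. Shares for all tested genes within these GC ranges were not computed, so the counts cannot be called particular to RAB genes. The Spearman rho between log2 change and GC content was −0.50 across the 55 RAB genes and −0.19 across all tested genes. Each of these points comes from the same 8 libraries, so the correlation describes them and carries no p. With offsets for this trend, 18 of the 25 higher calls and 2 of the 5 lower calls held. In that fit 18 RAB genes were higher and 5 lower, and the median was 0.076 for RAB genes and 0.015 for all tested genes. Calls that ended with these offsets are named below.

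**Figure D2:**
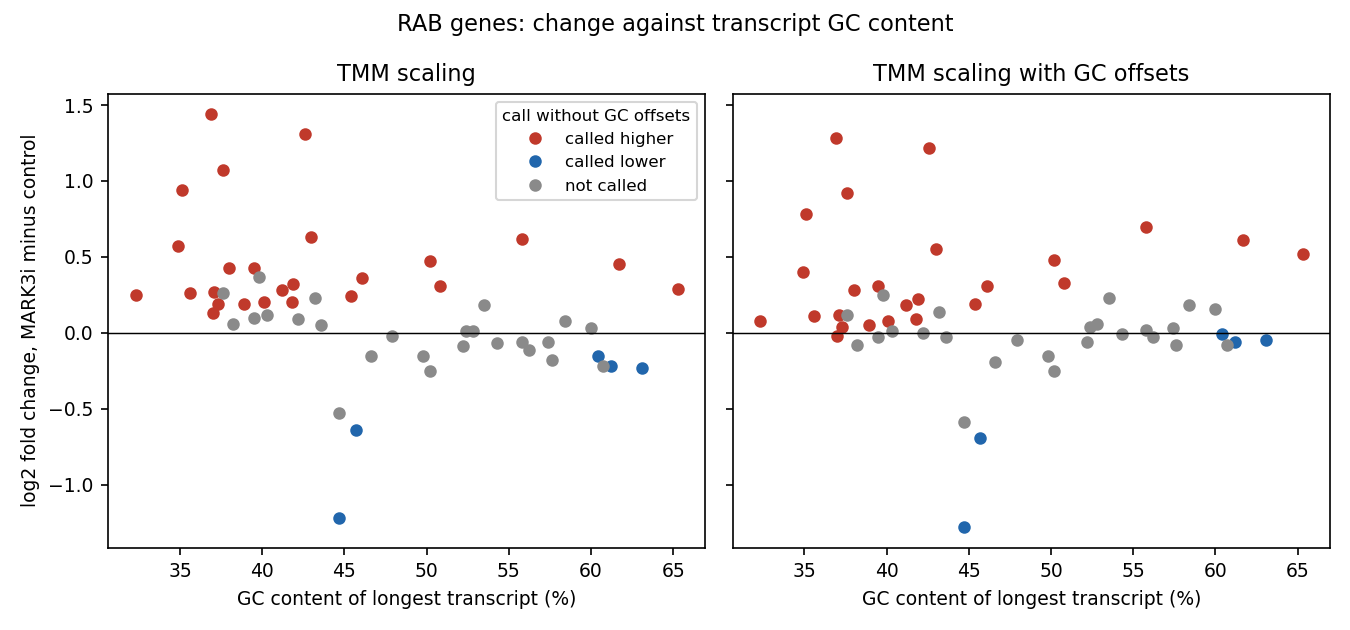
Log2 fold change (MARK3i minus control, vertical axis) of the 55 tested RAB genes against GC content of the longest transcript in percent, before (left) and after (right) offsets for each library's GC trend. Colours give the call without offsets. Of the genes under 44.7% GC, 18 were called higher, and the 3 called lower with the highest GC content lie near 0 after the offsets.

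Of 13 tested genes of ER and Golgi traffic, 9 (69.2%) were called higher, 1 (7.69%) lower and 3 not called, with a median log2 change of 0.25. The shares among all tested genes were 29.8% and 28.3%. With GC offsets 5 were called higher, and at an adjusted p under 0.01 there were 4. Differences between routes were not tested. RAB30, a GTPase of the Golgi (chromosome 11, 82973133 to 83071923, minus strand, hg38), was measured at 19.0, 15.3, 20.1 and 16.8 CPM in MARK3i libraries, against 8.75, 6.24, 5.48 and 5.68 CPM in control libraries. All MARK3i libraries lay above all control libraries, and the change of 1.44 ± 0.13 (adjusted p = 1.67e-09) was a 2.70-fold rise. RAB2B, which with RAB2A acts between ER and Golgi, had 27.5, 33.5, 34.7 and 27.4 CPM in MARK3i libraries, against 20.1, 20.3, 20.5 and 18.8 CPM in control libraries. It too was higher in every MARK3i library, by 0.63 ± 0.09 (adjusted p = 1.75e-06), whereas RAB2A rose by only 0.19 ± 0.06 (adjusted p = 0.0139) to 124 ± 9.80 CPM in MARK3i cells, against 108 ± 5.23 CPM in control cells (SD). The RAB2A call ended with GC offsets (0.04), without MARK3i replicate 1 (0.12) and without control replicate 4 (0.16).

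RAB19, a less studied Golgi RAB, had 5.77, 7.49, 8.11 and 8.07 CPM in MARK3i libraries, against 4.69, 6.08, 4.58 and 5.91 CPM in control libraries. The groups overlapped, and the rise of 0.47 ± 0.15 (adjusted p = 0.00887) held under all 19 alternative fits. RAB18, which works at the ER and on lipid droplets, had 99.3, 81.4, 92.5 and 90.4 CPM in MARK3i libraries, against 83.6, 79.6, 71.1 and 70.8 CPM in control libraries. MARK3i replicate 2 fell among the controls, and the call (0.25 ± 0.07, adjusted p = 0.00393) ended with GC offsets at 0.08. RAB6A, which directs traffic within the Golgi and back to the ER, rose by 0.20 ± 0.06 (adjusted p = 0.01) and its paralog RAB6B by 0.31 ± 0.11 (adjusted p = 0.0153). RAB33B, a Golgi RAB that also binds the autophagy protein ATG16L1, rose by 0.26 ± 0.09 (adjusted p = 0.0168), and RAB43 by 0.45 ± 0.17 (adjusted p = 0.0288). RAB43 shares 79.3% of its exon bases with the readthrough gene ISY1-RAB43, so its count is uncertain. Each of these 4 calls ended in at least 2 of the alternative fits: RAB6A and RAB33B with GC offsets (0.09 and 0.11), RAB43 with DESeq2 (0.44) and no filter, and all 4 when single libraries were left out.

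RAB1B was the sole ER and Golgi gene called lower. With RAB1A it drives ER-to-Golgi transport, and it had the highest level per kilobase of exon of any RAB gene, at 81.5 ± 3.42 CPM per kb in MARK3i cells and 90.5 ± 4.93 CPM per kb in control cells (SD, n = 4 each). It was at 166, 156, 151 and 163 CPM in MARK3i libraries, against 165, 174, 188 and 179 CPM in control libraries. MARK3i replicate 1 lay above control replicate 1, and the call (−0.15 ± 0.06, adjusted p = 0.0268) ended with GC offsets (−0.01), total-count scaling (−0.05) and upper-quartile scaling, and without MARK3i replicate 3, control replicate 3 or control replicate 4. RAB1A did not pass (0.06 ± 0.06, adjusted p = 0.364), and 22.9% of its exon bases lie opposite CEP68. RAB34 (−0.22 ± 0.26) and RAB41 (−0.15 ± 0.36) were near 1 CPM and were not called.

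Calls on the way from the Golgi to the cell surface went in both directions, as they did across all tested genes. Of 11 tested genes, 4 (36.4%) were called higher, 2 (18.2%) lower and 5 not called, against 29.8% and 28.3% of all tested genes. The median of 0.03 was close to that of all genes. The RAB27 and RAB3 proteins, which dock and tether secretory granules before exocytosis, included the largest changes. RAB27B (chromosome 18, 54717860 to 54895516, plus strand) had 52.6, 44.7, 49.9 and 43.7 CPM in MARK3i libraries, against 29.6, 25.0, 22.8 and 21.8 CPM in control libraries. The groups were far apart, with a rise of 0.94 ± 0.09 (adjusted p = 2.86e-09), or 1.92-fold. Its paralog RAB27A had 18.6, 15.7, 16.3 and 13.6 CPM in MARK3i libraries, against 14.7, 14.4, 10.6 and 13.9 CPM in control libraries. These libraries overlapped and RAB27A did not pass (0.26 ± 0.11, adjusted p = 0.0517), although it was called in 5 alternative fits, among them total-count scaling at 0.37.

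Within the RAB3 family, known for regulated exocytosis in neurons and endocrine cells, 2 members moved in opposite directions. RAB3C (chromosome 5, 58582221 to 58859394, plus strand) had 17.3, 14.9, 16.7 and 14.3 CPM in MARK3i libraries, against 7.11, 7.98, 7.53 and 7.47 CPM in control libraries. Its rise was 1.07 ± 0.11 (adjusted p = 6.92e-09). RAB3B (chromosome 1, 51907956 to 51990700, minus strand) had 11.6, 10.5, 9.85 and 10 CPM in MARK3i libraries, against 28.4, 23.7, 22.7 and 22.8 CPM in control libraries. This was the largest fall among the tested RAB genes, at −1.22 ± 0.10 (adjusted p = 1.4e-10), or 2.32-fold lower. Neither gene's groups overlapped, and both calls held under all 19 alternative fits.

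The log2 ratio of RAB3C to RAB3B within a library was 0.58, 0.50, 0.76 and 0.51 in MARK3i libraries and −2, −1.57, −1.59 and −1.61 in control libraries. The sign of the ratio thus differed between the groups in every library, though per kilobase both genes were low, with RAB3C at 1.64 ± 0.15 CPM per kb in MARK3i cells and 0.782 ± 0.0371 CPM per kb in control cells, and RAB3B at 0.822 ± 0.0624 and 1.91 ± 0.214 CPM per kb in the same groups (SD). RAB3D, the family member with the highest level per kilobase, was at 53.1 ± 4.94 CPM in MARK3i cells and 52.6 ± 2.57 CPM in control cells (SD), a log2 change of 0.01 ± 0.07 (adjusted p = 0.918). RAB3A was likewise not called (0.03 ± 0.12, adjusted p = 0.848).

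The promoters of RAB3C and RAB3B are shown because these paralogs moved apart, and that of RAB31 because it also moved by over 1 on the log2 scale and has a single window in the table. Each run is the 250 bases before a transcription start in the RefSeq table of GRCh38.p14, 5′ to 3′ on the gene's strand, with capitals marking a searched motif. The last bases of the RAB31 run lie in the first exon of another transcript in GENCODE. The RAB3C run lies wholly inside the gene as GENCODE draws it, past the first exon of a transcript with no defined coding sequence, and so is upstream of the annotated coding transcript only.
RAB3C, chr5:58582825-58583074, plus strand: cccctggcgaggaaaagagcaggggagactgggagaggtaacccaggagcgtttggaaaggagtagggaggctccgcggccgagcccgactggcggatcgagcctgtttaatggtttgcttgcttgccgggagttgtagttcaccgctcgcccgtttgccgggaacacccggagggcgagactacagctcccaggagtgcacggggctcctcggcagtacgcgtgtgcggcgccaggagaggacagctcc
RAB3B, chr1:51990701-51990950, minus strand: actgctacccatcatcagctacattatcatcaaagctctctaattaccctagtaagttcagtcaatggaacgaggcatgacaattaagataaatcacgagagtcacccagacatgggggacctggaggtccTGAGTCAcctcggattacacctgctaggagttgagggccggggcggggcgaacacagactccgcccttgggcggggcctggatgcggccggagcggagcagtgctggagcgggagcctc
RAB31, chr18:9708051-9708300, plus strand: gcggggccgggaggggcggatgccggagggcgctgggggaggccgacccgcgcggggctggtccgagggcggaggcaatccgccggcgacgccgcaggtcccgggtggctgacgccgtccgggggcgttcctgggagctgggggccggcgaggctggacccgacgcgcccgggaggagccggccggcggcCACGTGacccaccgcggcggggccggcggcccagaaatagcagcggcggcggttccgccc
The motifs searched on both strands of the whole window of 300 bases, 250 before and 50 after the start, were the E-box CACGTG, the CRE TGACGTCA, the AP-1 motif TGANTCA, the forkhead motif TGTTTAC and the androgen response element, in the strict form of AGAACA and TGTTCT with 3 bases between them, none of which contains another. The RAB3B window held an AP-1 match that begins 119 bases before the start, the RAB31 window an E-box that begins 60 bases before it, and the RAB3C window none. The windows of RAB30, which rose most among the tested RAB genes and is not shown, held none either. Of the 63 RAB genes, 50 matched the table, with 71 windows. An E-box was in 8.45% of these and in 7.26% of all 35116 windows, and an AP-1 match in 11.3% and 7.71%. The E-box windows belonged to RAB21, RAB24, RAB29, RAB31, RAB4A and RAB5A, which include genes called higher, called lower and not called. AP-1 matches were in 5.88% of windows of genes called higher, 25.0% of the 4 of genes called lower and 17.9% of those not called. The last share counts RAB27A and RAB34 more than once. CRE was found in 1.41% of RAB windows and 1.85% of all windows, the forkhead motif in 0 and 3.42%, and the androgen response element in 0 and 0.00285%. These matches describe letters in the window and do not show binding.

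RAB8B, which with RAB8A carries cargo to the plasma membrane and the cilium, had 16.3, 13.0, 15.4 and 13.3 CPM in MARK3i libraries, against 9.53, 10.3, 9.08 and 10 CPM in control libraries. It rose by 0.57 ± 0.11 (adjusted p = 7.37e-05) with groups that did not overlap, whereas RAB8A did not pass (−0.09 ± 0.08, adjusted p = 0.352). RAB10, a GTPase of exocytic vesicles such as those of the glucose transporter GLUT4, had the highest level per kilobase on this stretch and was at 227, 197, 210 and 195 CPM in MARK3i libraries, against 187, 175, 162 and 157 CPM in control libraries. All MARK3i libraries lay above the controls, with a rise of 0.28 ± 0.06 (adjusted p = 0.000459). RAB26, a GTPase of secretory granules, had 31.1, 37.8, 32.1 and 39.1 CPM in MARK3i libraries, against 37.1, 39.0, 45.7 and 41.6 CPM in control libraries. These groups overlapped, and the lower call (−0.22 ± 0.09, adjusted p = 0.0313) ended with GC offsets (−0.06), total-count scaling (−0.11), upper-quartile scaling and without MARK3i replicate 1 or 3 or control replicate 3 or 4. RAB13, of junctional traffic, was lower in every MARK3i library but missed the threshold (−0.15 ± 0.07, adjusted p = 0.0533). It was called lower in some alternative fits, among them GC offsets at −0.15.

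**Figure D3:**
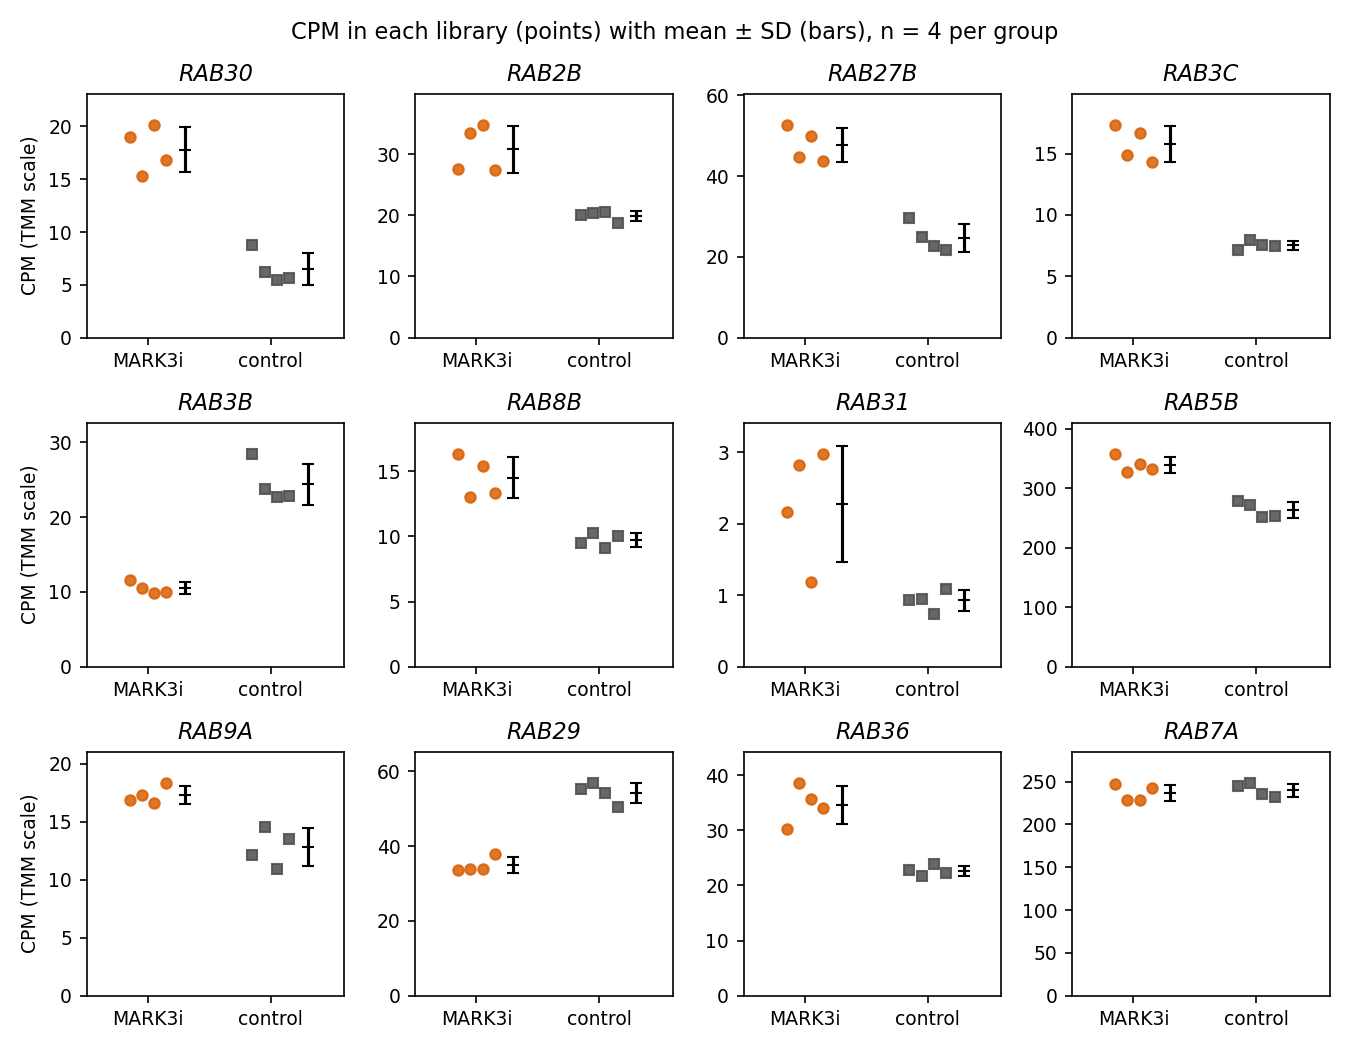
CPM on the TMM scale (vertical axis, from 0) in each MARK3i library (orange) and control library (grey) for 12 RAB genes, with mean ± SD beside the points (n = 4 per group). RAB30, RAB27B and RAB3C are higher in every MARK3i library, RAB3B and RAB29 are lower in every one, and the groups of RAB7A overlap.

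More endosomal genes were called higher than lower, mostly by small amounts. Of 15 tested, 7 (46.7%) were called higher, 1 (6.67%) lower and 7 not called, against 29.8% and 28.3% of all tested genes. The median was 0.13. With GC offsets 4 of the 15 were higher and 0 lower, against 30.0% and 29.6% of all tested genes in that fit. Higher calls were then no more frequent than in the background. RAB5 proteins drive the fusion of early endosomes. RAB5B had 357, 328, 340 and 332 CPM in MARK3i libraries, against 279, 271, 251 and 253 CPM in control libraries. RAB5A had 73.9, 67.7, 69.5 and 67.6 CPM in MARK3i libraries, against 55.4, 55.9, 53.9 and 57.3 CPM in control libraries. Both were higher in every MARK3i library, RAB5B by 0.36 ± 0.06 (adjusted p = 4.11e-06) and RAB5A by 0.32 ± 0.06 (adjusted p = 0.000105), while RAB5C, at 45.7 ± 2.66 CPM in MARK3i cells and 47.7 ± 1.14 CPM in control cells (SD), did not pass (−0.06 ± 0.07, adjusted p = 0.468). The difference between the RAB5 paralogs was not tested.

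RAB21, which takes part in the endocytosis of integrins, had 155, 153, 157 and 145 CPM in MARK3i libraries, against 127, 136, 120 and 120 CPM in control libraries. Its rise of 0.27 ± 0.06 (adjusted p = 0.000274) held under all 19 alternative fits, but was only 0.12 with GC offsets (edgeR adjusted p = 0.0326). RAB31, which acts between the trans-Golgi network and endosomes, was scarce, with 2.16, 2.82, 1.19 and 2.97 CPM in MARK3i libraries, against 0.937, 0.948, 0.736 and 1.09 CPM in control libraries. MARK3i replicate 3 lay just above the highest control, and the rise of 1.31 ± 0.29 (adjusted p = 0.000453) was the widest in error among the larger changes. RAB14, of transport between the Golgi and endosomes, rose by 0.19 ± 0.06, and RAB22A, of early and recycling endosomes, by 0.20 ± 0.07. Both of these calls ended with GC offsets, at 0.05 and 0.08, and that of RAB22A also without MARK3i replicate 3 (0.16).

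RAB11A and RAB11B, the GTPases of the recycling endosome, received opposite calls that were both small. RAB11A had 186, 178, 185 and 186 CPM in MARK3i libraries, against 174, 175, 161 and 160 CPM in control libraries. RAB11B had 116, 152, 121 and 140 CPM in MARK3i libraries, against 145, 156, 156 and 166 CPM in control libraries. The RAB11A groups did not overlap, but those of RAB11B did. RAB11A was called at 0.13 ± 0.06 (adjusted p = 0.0429), which ended in 12 of 19 alternative fits and turned to −0.02 with GC offsets. RAB11B was called at −0.23 ± 0.07 (adjusted p = 0.00741), which ended with GC offsets (−0.05) and total-count scaling (−0.13). Their transcripts stand far apart in composition, at 37.0% GC for RAB11A and 63.1% for RAB11B. RAB11B had the highest level per kilobase of the endosomal genes, at 57.3 ± 7.06 CPM per kb in MARK3i cells and 67.4 ± 3.62 CPM per kb in control cells (SD). RAB4A, RAB4B, RAB15, RAB17, RAB20 and RAB35 were not called, with changes of −0.18 to 0.18.

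The lysosomal genes showed no common direction. Of 8 tested, 2 (25.0%) were called higher, 1 (12.5%) lower and 5 not called, against 29.8% and 28.3% of all tested genes. The median was 0.06. Their summed level was 372 ± 10 CPM in MARK3i cells and 384 ± 12.4 CPM in control cells (SD, n = 4 each). RAB7A, the main GTPase of late endosomes and lysosomes and the highest of this list per kilobase, had 247, 228, 229 and 242 CPM in MARK3i libraries, against 245, 248, 235 and 232 CPM in control libraries. The groups overlapped throughout, and the change of −0.02 ± 0.05 (adjusted p = 0.742) was within its error. Its estimates lay between −0.06 and 0.08 over the 19 alternative fits.

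RAB29 was the clearest lysosomal change. It resides at the trans-Golgi network and on stressed lysosomes, where it recruits the kinase LRRK2 (chromosome 1, 205767986 to 205775482, minus strand). RAB29 had 33.7, 33.9, 34.0 and 38.0 CPM in MARK3i libraries, against 55.2, 56.8, 54.3 and 50.5 CPM in control libraries. Every MARK3i library lay below every control, with a change of −0.64 ± 0.07 (adjusted p = 3.5e-08), or 1.55-fold lower, which held under all 19 alternative fits. RAB9A, which returns mannose 6-phosphate receptors from late endosomes to the Golgi, had 16.9, 17.3, 16.6 and 18.3 CPM in MARK3i libraries, against 12.1, 14.5, 10.9 and 13.5 CPM in control libraries. It rose by 0.43 ± 0.10 (adjusted p = 0.000686), and its paralog RAB9B had a change of 0.37 ± 0.17 that did not pass (adjusted p = 0.0679).

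RAB12, which sends transferrin receptor to lysosomes, had 35.3, 37.8, 34.9 and 33.5 CPM in MARK3i libraries, against 31.2, 32.4, 26.5 and 29.6 CPM in control libraries. Its groups did not overlap, and its rise of 0.24 ± 0.08 (adjusted p = 0.0107) ended only without control replicate 3, at 0.18, among the 19 alternative fits. RAB32, known from melanosomes, was at −0.25 ± 0.11 and missed the threshold (adjusted p = 0.055), and was called lower in 7 alternative fits. RAB24, of autophagy, was not called (0.08 ± 0.10), and 44.8% of its exon bases are shared with MXD3, which was expressed more strongly. RAB39A was not called either (0.05 ± 0.17).

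Outside these routes, 3 of 8 tested genes (37.5%) were called higher and 0 lower, against 29.8% and 28.3% of all tested genes. RAB36, a less studied RAB linked to the Golgi and late endosomes, had 30.3, 38.5, 35.7 and 34.1 CPM in MARK3i libraries, against 22.7, 21.7, 23.8 and 22.2 CPM in control libraries. It was higher in every MARK3i library, by 0.62 ± 0.08 (adjusted p = 7.27e-07). RAB40C, a subunit of a cullin ubiquitin ligase, had 89.2, 103, 85 and 95.7 CPM in MARK3i libraries, against 69.1, 72.7, 82.1 and 80.7 CPM in control libraries. It rose by 0.29 ± 0.07 (adjusted p = 0.00104) although its transcript had the highest GC content of the tested RAB genes, 65.3%, and its estimate was 0.52 with GC offsets. RAB23, a negative regulator of Hedgehog signalling, had 16.6, 13.2, 17.6 and 13.6 CPM in MARK3i libraries, against 11.7, 9.88, 13.3 and 10.2 CPM in control libraries. The groups overlapped slightly, the rise was 0.43 ± 0.12 (adjusted p = 0.00327), and 57.8% of its exon bases lie opposite BAG2, whose own change was −0.23 (adjusted p = 0.0758). RAB40A was lower in every MARK3i library but missed the threshold (−0.53 ± 0.23, adjusted p = 0.0543). It was called lower in some alternative fits, among them GC offsets at −0.59. RAB40B, RAB28, RAB39B and RAB6D were not called, with changes of 0.01 to 0.23.

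The 8 genes below the count filter were RAB33A, RAB6C, RAB37, RAB25, RAB38, RAB7B, RAB42 and RAB44, none of which exceeded 24 counts in a library. RAB7B, a late endosomal GTPase distinct from RAB7A, had 8, 24, 16 and 10 counts in MARK3i libraries and 0, 1, 1 and 4 in control libraries. RAB33A, a Golgi RAB, had 2, 6, 5 and 2 counts in MARK3i libraries and 12, 11, 9 and 10 in control libraries. RAB6C, a near copy of RAB6A, had 19, 23, 9 and 11 counts in MARK3i libraries and 5, 6, 3 and 3 in control libraries. These 3 were chosen after their values were seen. In the edgeR fit without a filter their adjusted p-values were 1.03e-05, 0.00146 and 0.00555, and those of the other 5 genes were 0.267 or more. That fit called 27.0% of all genes it included. Reads of RAB6A, RAB6C and RAB6D can be hard to assign to 1 gene, so their split is uncertain.

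The wider machinery of RAB traffic was also called higher more often than lower. These lists were chosen with earlier results of these data known, and their differences from the background were not tested. Of 48 tested GEF genes, 22 (45.8%) were higher and 9 (18.8%) lower (median 0.14), against 29.8% and 28.3% of all tested genes. RABIF, a chaperone and exchange factor of exocytic RABs, rose to 32.7 ± 2.82 CPM in MARK3i cells, against 19.7 ± 1.11 CPM in control cells (SD; 0.73 ± 0.08, edgeR adjusted p = 5.68e-08). DENND1B, a GEF of RAB35, rose by 0.70 ± 0.09, and TRAPPC11, a subunit of the TRAPP complex that activates RAB1, by 0.55 ± 0.08. RAB3IL1, a GEF of RAB8 that also binds RAB3A, fell to 3.24 ± 0.486 CPM in MARK3i cells, against 7.22 ± 0.811 CPM in control cells (SD; −1.17 ± 0.16, edgeR adjusted p = 6.23e-07). TRAPPC6A (−0.49 ± 0.08) and DENND4B, a GEF of RAB10 (−0.46 ± 0.08), fell as well.

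Of 38 tested GAP genes, 22 (57.9%) were higher and 4 (10.5%) lower (median 0.21), against 29.8% and 28.3% of all tested genes. EVI5, which acts on RAB11, rose to 25.4 ± 0.88 CPM in MARK3i cells, against 13.9 ± 0.39 CPM in control cells (SD; 0.87 ± 0.08, edgeR adjusted p = 2.96e-09). RABGAP1 rose by 0.63 ± 0.07, and RAB3GAP1, the catalytic subunit of the RAB3 GAP, by 0.60 ± 0.07. TBC1D30, a GAP of RAB8, fell by 0.92 ± 0.10 on the log2 scale. TBC1D15, a GAP of RAB7 (−0.20 ± 0.06), and TBC1D17 (−0.22 ± 0.08) had small falls whose calls ended with total-count scaling (−0.09 and −0.11), and also without control replicate 1 for TBC1D15 (−0.16), and with GC offsets (−0.08) or without control replicate 4 (−0.18) for TBC1D17.

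Among 13 genes for GDP dissociation inhibitors, prenylation and YIPF Golgi membrane proteins, 6 (46.2%) were higher and 2 (15.4%) lower (median 0.07). The shares among all tested genes were 29.8% and 28.3%. The higher ones included YIPF5 (0.55 ± 0.08), YIPF4 (0.29 ± 0.06) and YIPF3 (0.29 ± 0.06). CHML, a RAB escort protein for prenylation, fell (−0.48 ± 0.11, edgeR adjusted p = 0.000419). GDI2, a GDP dissociation inhibitor, was at 220 ± 18.3 CPM in MARK3i cells and 249 ± 9.99 CPM in control cells (SD; −0.18 ± 0.06, edgeR adjusted p = 0.0124), a call that ended with total-count scaling (−0.08) and without control replicate 2 (−0.16).

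Of 66 tested effector genes, 30 (45.5%) were higher and 13 (19.7%) lower (median 0.14), against 29.8% and 28.3% of all tested genes. Changes reached up to 2.67. MYO5A, the myosin motor that moves RAB27 and RAB3 vesicles, rose to 31.2 ± 1.8 CPM in MARK3i cells, against 11.6 ± 1.93 CPM in control cells (SD; 1.42 ± 0.10, edgeR adjusted p = 9.78e-12). UNC13D, a RAB27 effector that primes granules for release, rose to 4.49 ± 1.46 CPM in MARK3i cells, against 0.714 ± 0.201 CPM in control cells (SD; 2.67 ± 0.28, edgeR adjusted p = 1.67e-08). SYTL1, another RAB27 effector, fell to 21.6 ± 2.92 CPM in MARK3i cells, against 50.1 ± 4.90 CPM in control cells (SD; −1.20 ± 0.09, edgeR adjusted p = 4.91e-11). These 2 effectors of RAB27 thus moved in opposite directions. OPTN, a RAB8 effector and autophagy receptor, rose by 2.33 ± 0.17, and RABEPK, a RAB9 effector, fell by 0.98 ± 0.09 on the log2 scale. RIMS3, listed here as a member of the RIM family of active-zone proteins, fell by 0.75 ± 0.07. Whether RIMS3 itself binds a RAB was not checked.

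Of 48 tested coat and adaptor genes, 19 (39.6%) were higher and 8 (16.7%) lower (median 0.09). Among all tested genes 29.8% were higher and 28.3% lower. Subunits of the same coat differed, as COPB1 of the COPI coat rose (0.57 ± 0.06) and COPZ1 of that coat fell (−0.39 ± 0.05). AP2B1 of the plasma membrane clathrin adaptor (0.49 ± 0.06) and AP3M1 of the AP-3 adaptor (0.42 ± 0.07) rose, while GGA1 (−0.41 ± 0.07) and AP1S3 (−0.78 ± 0.15), both of clathrin coats at the Golgi, fell. Of 39 tested SNARE genes, 26 (66.7%) were higher and 2 (5.13%) lower (median 0.27). STX4, a plasma membrane syntaxin, rose to 79.6 ± 7.43 CPM in MARK3i cells, against 47.6 ± 2.46 CPM in control cells (SD; 0.74 ± 0.07, edgeR adjusted p = 3.43e-09), STX3 rose by 0.52 ± 0.06 and the endosomal STX12 by 0.53 ± 0.06. USE1, of the ER, was lower (−0.55 ± 0.09), as was STX10 (−0.25 ± 0.07), whose call ended with total-count scaling (−0.14) and GC offsets (−0.09).

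**Figure D4:**
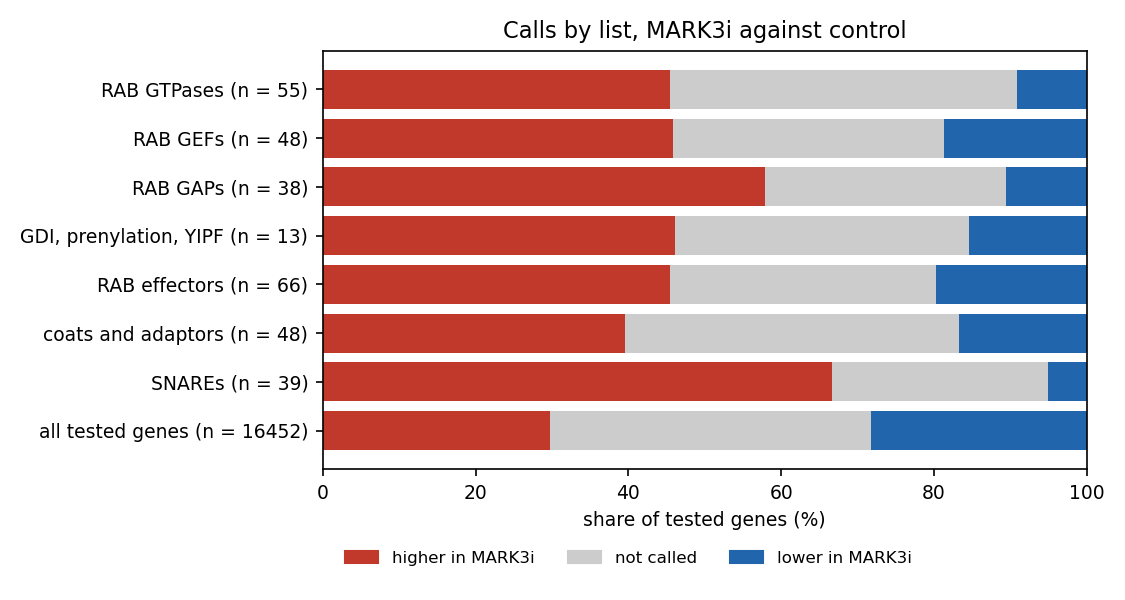
Share of tested genes in percent (horizontal axis) called higher in MARK3i cells (red), not called (grey) or called lower (blue) for RAB GTPases, 6 lists of their machinery and all 16452 tested genes. Every list has a larger red share than the 29.8% of all tested genes and a smaller blue share than 28.3%.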

How the data were processed

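Per the series' own text and per the submitters' notes on processing, the authors aligned reads to hg38 and used featureCounts, and each deposited file holds 1 sample's raw counts per gene. The sources used here give neither the aligner's settings nor annotation, strandedness or filters. As antisense reads may be counted for a gene, exon overlaps were looked up in GENCODE release 44 (hg38), which also gave symbols, exon lengths and GC content. Of 58735 identifiers, 528 were not in it and stayed in the tests.

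Counts were filtered with filterByExpr, scaled by TMM and tested with edgeR 4.0.16 in R 4.3.3 (glmQLFit with robust estimation, glmQLFTest on the group alone). SE is the absolute log2 change divided by the square root of F. The median SE of the tested RAB genes was 0.09. In simulated counts in which 200 genes were changed and 16501 genes tested, the share called was 29.2% at a 1.25-fold change, 75% at 1.5-fold and 0.0368% with no change. With so few changed genes the adjustment is stricter there than in these data.

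The members and lists were chosen with earlier results of these data known. Per-library values were printed for up to 4 called genes per route and direction with the smallest p and a mean of at least 1 CPM, the highest gene per kilobase of each route, and subfamilies with opposite calls. RAB27A and the 3 scarce genes with counts were added after their values were seen. Other lists name up to 3 called genes per direction. The result of 1 marker list is not reported here. Alternative fits used RLE, upper-quartile or total-count scaling, no filter, 1 CPM in 4 libraries, DESeq2 1.42.0, voom of limma 3.58.1, no robust estimation, a replicate block, GC offsets (from a lowess trend per library), both together, or 1 library fewer. A stricter adjusted p of 0.01 was also read.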

Additional observations from a re-analysis of the deposited data

Results flagged for a closer look

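Of 110 groups of 4 libraries, 1 for each tested RAB gene in each condition, 3 held a library set apart from the other 3 by a gap that took up nearly the whole range of the group, where chance gives about 1 in 20. RAB11A was at 178 CPM in MARK3i replicate 2, against 185 to 186 CPM in the other MARK3i libraries. RAB29 was at 38.0 CPM in MARK3i replicate 4, against 33.7 to 34.0 CPM in the others, and still under every control. RAB8A was at 28.9 CPM in control replicate 1, against 32.5 to 32.9 CPM in the other controls.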

How the results depend on the processing

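Of the 30 called RAB genes, 17 kept their call under all 19 alternative fits, 15 higher (RAB19, RAB2B, RAB30, RAB10, RAB27B, RAB3C, RAB8B, RAB21, RAB31, RAB5A, RAB5B, RAB9A, RAB23, RAB36 and RAB40C) and 2 lower (RAB3B and RAB29). The 13 that lost it in at least 1 fit had changes of at most 0.45, and 9 genes that were not called gained a call in at least 1. Higher RAB genes numbered 17 to 30 over all settings. Total-count scaling moved the median of all genes to 0.125, the RAB median to 0.282 and shifted calls towards higher ones.

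The count of lower RAB genes was 8 with RLE scaling, 3 with upper-quartile scaling, 2 with total counts and 3 at an adjusted p under 0.01, and 3 to 8 with 1 library left out, 8 without MARK3i replicate 2 and 3 without control replicate 4. GC offsets, with or without the replicate block, gave 5 higher and 0 lower ER and Golgi genes, 4 higher and 0 lower endosomal genes, 2 lower lysosomal genes, 1 lower gene outside the routes, 2 lower GAP genes and 1 lower SNARE gene, and turned RAB11A to −0.02. Total counts gave 0 lower ER and Golgi genes, 1 lower Golgi-to-surface gene (1 lower over the whole secretory route), 0 lower endosomal genes, and 5 lower coat, 1 lower GAP, 1 lower GDI and prenylation and 1 lower SNARE gene. Upper-quartile scaling gave 0 lower ER and Golgi and 1 lower Golgi-to-surface gene, again 1 over the whole secretory route. RLE scaling gave 2 lower lysosomal genes and 1 lower outside the routes, and no filter gave 2 lower ER and Golgi genes. An adjusted p under 0.01 left 4 higher and 0 lower ER and Golgi genes, 1 lower Golgi-to-surface gene, 8 higher and 1 lower secretory genes, 1 higher lysosomal gene, 1 lower GAP gene and 1 lower GDI and prenylation gene.

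With 1 library left out, lower genes numbered 0 to 2 for ER and Golgi, 1 to 2 for Golgi to surface, 1 to 4 for the secretory route, 1 to 2 for endosomal, lysosomal and GDI genes and 0 to 1 outside the routes. The deviations of same-numbered libraries from their group means had correlations of 0.131, −0.088, −0.053 and 0.084, and those of differently numbered ones −0.161 to 0.129. These values cannot tell whether a number marks a shared batch, as each deviation is taken from a mean of only 4 libraries. The labels do not say either. Gene counts of controls 1 and 2 differed by a chi-square of 1.729 per degree of freedom, and those of controls 3 and 4 by 1.686. Other pairs of controls differed by 3.413 to 4.631, and pairs of MARK3i libraries by 3.418 to 9.878. The reason was not tested, and a block by replicate number does not model such pairs. The replicate block gave 26 higher and 6 lower RAB genes and 2 lower lysosomal genes. The cause of these shifts was not tested. At this depth 8 RAB genes, with at most 24 counts in a library, fell below the count filter.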
